A study of Mus musculus with 2 samples.

Results

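The genes described here are those of the cytochrome P450 families Cyp1 to Cyp4 and the UDP-glucuronosyltransferase families Ugt1 and Ugt2. They also include the carboxylesterase families Ces1 and Ces2, the glutathione S-transferases (Gsta, Gstm, Gstp, Gstt, Gsto, Gstk) and the sulfotransferase families Sult1 and Sult2. Members were taken by symbol and had to hold 200 or more counts summed over 2 tissue sections of mouse intestine. Of 54658 symbols, 152 matched the families and 80 passed, while 68 had fewer counts and 4 had none. The members were thus chosen by their counts summed over both sections, a measured value, and 1 section held 2.25 times as many counts as the other. The choice favours genes that are high in the deeper section, since 46 members reached 200 counts in the deeper section only, 2 in the other only, 31 in each alone and 1 in neither alone. Counts of members that were higher or lower are therefore descriptions and support nothing about the families as such.

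The study is a spatial transcriptome of irradiated intestine, in which RNA is captured from a section on an array of barcoded positions. A section came from a mouse labelled WT and the other from a mouse labelled DPF2 KO, and both mice had received X-rays at a dose of 10 Gy. They are named here the WT-labelled section and the KO-labelled section. The DPF2 protein is part of the BAF chromatin remodelling complex. No group was left without radiation, and each group is 1 section. Nothing is given in the sources used here on which exons of Dpf2 were removed, in which cells, on the age and strain of the mice, on the time after irradiation or on the stretch of gut. Genotype, animal, section, gut stretch and sequencing run cannot be told apart, so no test was made and no p-value is given. Intervals cover counting error only, at 95%.

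These enzymes clear foreign chemicals and many bile acids, steroids and fatty acids. In the first phase, P450 enzymes of the endoplasmic reticulum oxidise a substrate with electrons from the reductase Por, and carboxylesterases split esters and amides. In the second phase, transferases attach glucuronic acid, sulfate or glutathione, and transporters such as Abcc2 and Abcg2 export the product. In the small intestine many of these enzymes are known to be made by mature absorptive cells of the villus, under the aryl hydrocarbon receptor (Ahr), the xenobiotic receptors PXR (Nr1i2) and CAR (Nr1i3), and the gut factors HNF4A and HNF4G. Several glutathione S-transferases are also targets of the oxidative stress factor NRF2 (Nfe2l2) and are made in many cell types.

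The 250 bases upstream of the RefSeq start sites were searched on both strands for short motifs of these regulators. Of the 80 members, 72 had at least 1 such window, 86 windows in all, among 32851 windows of all genes (RefSeq, GRCm38.p6). The first pair is shown because the genes are the highest and the lowest of all members in the ratio between the sections and each holds the Ahr core GCGTG, in capitals, on the plus or the minus strand of the gene. In Cyp1a1 (chr9:57697363-57697612, plus strand) the core starts 54 bases before the start site and the TATA box TATAAA, also in capitals, 30 bases before it. In Cyp1b1 (chr17:79715062-79715311, minus strand) the core lies on the opposite strand, 76 bases before the start site.

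Cyp1a1: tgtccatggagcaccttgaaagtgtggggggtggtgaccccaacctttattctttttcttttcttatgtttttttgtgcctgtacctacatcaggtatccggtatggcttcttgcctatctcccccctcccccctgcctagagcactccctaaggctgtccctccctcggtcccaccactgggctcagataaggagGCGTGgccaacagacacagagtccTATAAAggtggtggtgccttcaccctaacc

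Cyp1b1: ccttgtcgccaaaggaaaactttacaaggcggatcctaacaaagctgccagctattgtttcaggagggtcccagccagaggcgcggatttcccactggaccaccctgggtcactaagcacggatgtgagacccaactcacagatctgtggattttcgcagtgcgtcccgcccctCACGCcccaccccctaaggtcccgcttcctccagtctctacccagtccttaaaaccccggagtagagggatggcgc

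GCGTG was present in 22.1% of the members' windows and in 28.2% of all windows, so a match is common and the pair of genes with opposite ratios shares it. The other set is shown because its motif was the one that differed most as a ratio of frequencies, although the HNF1 half-site GTTAAT differed by more percentage points (16.3% of members' windows and 6.43% of all windows): the HNF4A consensus CAAAGTCCA, in capitals or as its reverse complement, was found in 4 members' windows, 4.65%, against 0.384% of all windows. Each is given as 61 bases, for Cyp2c40 (chr19:39812825-39812885, minus strand), Cyp2c65 (chr19:39060864-39060924, plus strand), Cyp2c68 (chr19:39741144-39741204, minus strand) and Cyp3a11 (chr5:145879929-145879989, minus strand).

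Cyp2c40: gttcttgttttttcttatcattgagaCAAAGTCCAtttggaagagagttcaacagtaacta

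Cyp2c65: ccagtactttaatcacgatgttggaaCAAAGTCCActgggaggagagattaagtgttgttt

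Cyp2c68: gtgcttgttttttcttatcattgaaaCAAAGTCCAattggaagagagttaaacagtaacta

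Cyp3a11: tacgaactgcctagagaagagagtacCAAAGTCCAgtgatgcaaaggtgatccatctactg

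Cyp2c40, Cyp2c65 and Cyp2c68 are neighbours in the Cyp2c cluster on chromosome 19 and share their source by descent, so they are not independent matches. The HNF1 half-site GTTAAT was found in 16.3% of the members' windows and 6.43% of all windows, the nuclear receptor half-site AGGTCA in 18.6% and 14.02%, AGTTCA in 10.5% and 11.8%, TATAAA in 18.6% and 12.4%, and the NRF2 core TGACNNNGC in 5.81% and 10.2%. AGGTCA and AGTTCA differ in a single letter and are counted separately. A match describes the letters of the window and is not a measured site.

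The WT-labelled section held 50970 barcodes and 39824941 counts, at a median of 721 counts per barcode, and the KO-labelled section held 88056 barcodes and 89754886 counts, at a median of 932. A barcode here covers a small area that can hold several cells or part of one. Dpf2 itself was measured at 23.6 CPM (counts per 1000000 counts of the section) in the WT-labelled section and at 25.99 CPM in the KO-labelled section, a log2 ratio of 0.14 (0.03 to 0.25), so the labels were not borne out by the level of the targeted gene and are used here only as names. Of the barcode names, 45557 occur in both sections, each at the same array position. The sections also differed widely in cell type markers. The 17 villus enterocyte markers summed to 729 CPM in the WT-labelled section and 38045 CPM in the KO-labelled section, the 11 Paneth cell markers to 103189 and 5877 CPM, the 18 proliferation markers to 1557 and 840 CPM, the 12 smooth muscle markers to 1061 and 2345 CPM and the 8 neutrophil markers to 628 and 4.86 CPM. The 6 genes that mark the proximal small intestine summed to 63.7 and 6886 CPM. Of these, Fabp1 (5118 CPM in the KO-labelled section) and Lct (1090 CPM) are also among the villus markers. Cybrd1 (log2 -0.55) and Slc40a1 (0.90) lay within 2-fold. The 5 genes that mark the ileum summed to 40.5 and 556 CPM. With sums over barcodes, fewer cells of a type and less RNA per cell cannot be told apart.

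Together the 80 enzyme genes accounted for 0.0897% of counts (0.0888% to 0.0907%) in the WT-labelled section and 0.887% (0.885% to 0.889%) in the KO-labelled section. That is 897 and 8866 CPM, a log2 ratio of 3.30. All 80 had counts in both sections. Over tiles of 100 by 100 position units, of which 65 lay in the WT-labelled section and 92 in the KO-labelled section, the sum ran from 500 through a median of 871 to 1392 CPM in the first and from 5374 through 8682 to 12623 CPM in the second. No tile of one section reached the range of the other. At least 1 count of a member was present in 45.4% of barcodes of the WT-labelled section and in 97.8% of those of the KO-labelled section, a share that also depends on depth.

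Of the 80 members, 66 were at least 2-fold higher in the KO-labelled section, beside 15.7% of the 14516 genes with as many counts, and 3 were at least 2-fold lower, beside 19.7%. The other 11 lay within 2-fold. The median log2 ratio was 3.38, beside -0.18 over all those genes. When each section was cut by position into 4 parts, all 4 parts of the KO-labelled section lay above all 4 of the other for 69 members (31.5% of all genes) and below them for 4 members (42.8% of all genes). Every tile of the KO-labelled section lay above every tile of the other for 29 members (4.17% of all genes), and for none did every tile lie below (1.11% of all genes). The enzyme classes changed place as sources of these counts. Glutathione S-transferases held 61.5% of member counts in the WT-labelled section and 17.0% in the KO-labelled section, while P450 genes held 21.9% and 46.9%, carboxylesterases 7.56% and 20.7%, glucuronosyltransferases 5.79% and 9.07%, and sulfotransferases 3.32% and 6.32%.

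**Figure D1:**
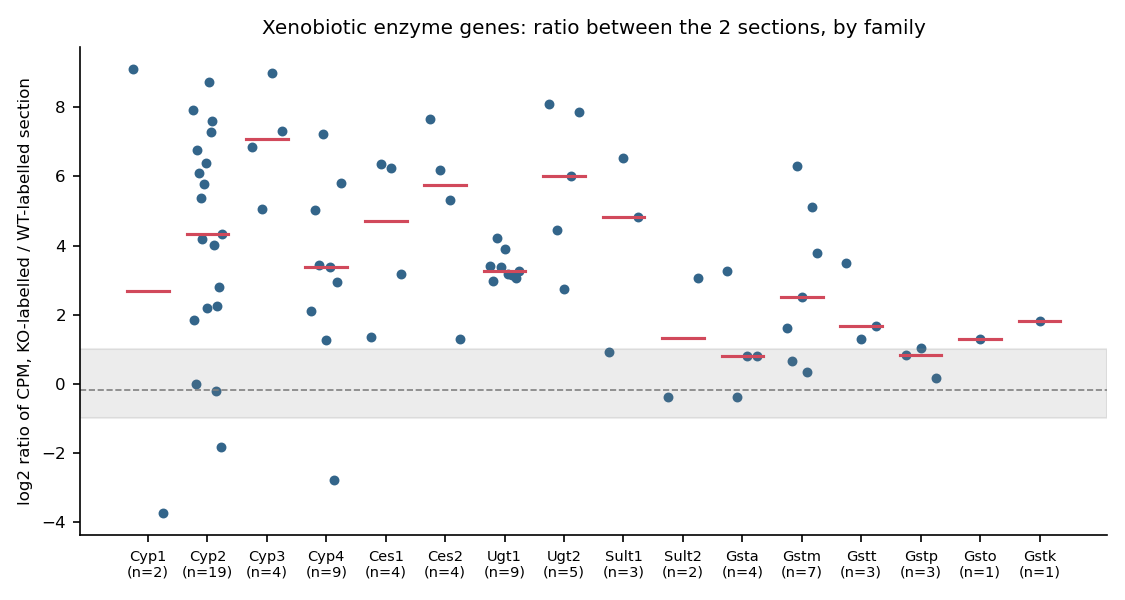
Log2 ratio of CPM, KO-labelled section over WT-labelled section, for each of the 80 enzyme genes (points), by family on the horizontal axis with the number of members; red bars are family medians, the grey band marks less than 2-fold and the dashed line the median of all genes at -0.18. Ugt1 members lie close together between 2.98 and 4.23, Cyp1 members lie at 9.10 and -3.73, and Gsta and Gstp medians lie inside the band.

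The P450 genes showed both the highest and the lowest ratios. Of 34 members, 29 were at least 2-fold higher in the KO-labelled section (15.7% of all genes) and 3 were lower (19.7%). The other 2 were within 2-fold, and the median log2 ratio was 4.68. Cyp1a1, which oxidises planar aromatic hydrocarbons and is the textbook target of Ahr, had 6 counts in the WT-labelled section and 7440 in the KO-labelled section, or 0.151 and 82.9 CPM. Its log2 ratio was 9.10 (7.98 to 10.55), the highest of all members. The median tile of the WT-labelled section held no count and its highest tile 3.85 CPM, whereas tiles of the KO-labelled section ran from 14.1 through 66.9 to 239 CPM, so the tiles did not overlap.

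All 4 Cyp3 members were at least 2-fold higher in the KO-labelled section (15.7% of all genes), with a family median log2 ratio of 7.09. These enzymes oxidise a wide range of drugs and steroids. Cyp3a13, the main Cyp3a gene by counts here, was at 34.2 CPM (32.4 to 36.0) in the WT-labelled section and 1129 CPM (1122 to 1136) in the KO-labelled section, a log2 ratio of 5.05. Its tiles ran from 0 through 25.5 to 183 CPM and from 361 through 1087 to 2367 CPM. Cyp3a25 went from 6 to 6865 counts (log2 8.99), Cyp3a11 from 36 to 9397 (6.86) and Cyp3a44 from 1 to 359 (7.32, 4.83 to 12.62). The interval of Cyp3a44 is wide because it rests on 1 count.

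Cyp2 was the largest family, with 16 of 19 members at least 2-fold higher (15.7% of all genes) and 1 lower (19.7%). Its median log2 ratio was 4.33. Cyp2d26 had 27 counts in the WT-labelled section and 26044 in the KO-labelled section (0.678 and 290.2 CPM, log2 8.74, 8.20 to 9.34). Its highest tile in the first section, 6.78 CPM, lay under the lowest in the second, 101 CPM. Cyp2b10, the textbook target of the receptor CAR, went from 22 to 12144 counts (log2 7.94), Cyp2j11 from 5 to 2197 (7.61) and Cyp2e1, which oxidises ethanol and small solvents, from 13 to 4615 (7.30). Cyp2j6, an arachidonic acid epoxygenase of the gut, had more counts in the WT-labelled section than those genes and a smaller ratio, 13.96 against 225 CPM (log2 4.01). Cyp2j8 had a log2 ratio of -0.22. Cyp2c members ranged from 0.01 for Cyp2c23 to 6.77 for Cyp2c29, with a median of 5.78 over 7 members. Cyp2c65, the Cyp2c gene with most counts in each section, was at 7.06 and 130.1 CPM (log2 4.204), and Cyp2c55, Cyp2c66, Cyp2c68 and Cyp2c40 had ratios of 5.37, 5.78, 6.39 and 6.10. The sequences of these genes are alike, and reads that fit more than 1 of them may have been split among them.

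The Cyp4 family hydroxylates fatty acids and eicosanoids at their end carbon. It had 8 of 9 members at least 2-fold higher (15.7% of all genes) and 1 lower (19.7%), with a median log2 ratio of 3.38. Cyp4f14, a leukotriene and fatty acid hydroxylase, was at 5.42 CPM (4.72 to 6.20) in the WT-labelled section and 818 CPM (812 to 824) in the KO-labelled section, a log2 ratio of 7.24. It held 0.604% of member counts in the first section and 9.23% in the second. Cyp4v3 went from 5.70 to 320.6 CPM (log2 5.81), Cyp4b1 from 5.17 to 169 (5.03), Cyp4f16 from 16.4 to 169.9 (3.38) and Cyp4f13 from 10.2 to 110.9 (3.44). The Cyp4f genes on chromosome 17 all had positive ratios, from 1.26 for Cyp4f15 to 7.24, and the member outside that cluster, Cyp4f18 on chromosome 8, had a ratio of -2.77.

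The 3 members that were at least 2-fold lower in the KO-labelled section are all P450 genes. Cyp1b1, a P450 of stroma and vessels that also oxidises oestrogens, was at 28.7 CPM (27.1 to 30.4) in the WT-labelled section and 2.16 CPM (1.87 to 2.49) in the KO-labelled section, a log2 ratio of -3.73 (-3.96 to -3.51). Its tiles ran from 4.63 through 27.4 to 66.5 CPM and from 0 through 1.89 to 9.64 CPM, so single tiles overlapped although the 4 parts did not. Cyp4f18, which acts on leukotriene B4 in neutrophils, was at 23.6 and 3.45 CPM (log2 -2.77), and 1 tile of the WT-labelled section reached 164 CPM against a median tile of 22.3. Cyp2t4 was at 7.48 and 2.12 CPM (log2 -1.82). Markers moved with these genes: the 8 neutrophil markers summed to 628 CPM in the WT-labelled section and 4.86 in the other, with 7 of 7 measured markers at least 2-fold lower. The 7 stroma markers summed to 757 and 455 CPM, with 1 of 7 lower and 6 within 2-fold, and the 5 endothelial markers to 206 and 103 CPM, with 4 of 5 lower. The 8 macrophage markers summed to 566 and 156 CPM, with 6 of 8 lower. The part of these lists in the result was not tested. Within the WT-labelled section, Cyp4f18 was at 35.05 CPM in squares rich in neutrophil markers and 22.6 CPM in the others (log2 0.63, 0.32 to 0.94), and Cyp1b1 was at 43.5 CPM in squares rich in stroma markers and 27.2 CPM in the others (log2 0.68). In squares rich in endothelial markers Cyp4f18 was at 36.6 CPM against 22.9 in the others (0.67, 0.28 to 1.05). Cyp1b1 was there at 31.8 against 28.7 CPM (0.15, -0.28 to 0.55). For Cyp2t4 the log2 ratio was -0.63 (-1.52 to 0.14) with neutrophil, -0.82 (-1.62 to -0.11) with stroma and 0.62 (-0.13 to 1.29) with endothelial markers. In the KO-labelled section stroma-rich squares gave log2 ratios of 1.87 (1.40 to 2.33) for Cyp1b1 and 0.47 (-0.03 to 0.94) for Cyp4f18. For Cyp2t4 the ratio there was 0.85 (0.26 to 1.40), opposite in sign to the WT-labelled section. In its endothelium-rich squares Cyp1b1 was at 7.29 against 1.82 CPM. Ratios there were 0.47 (-0.16 to 1.04) for Cyp4f18 and 1.13 (0.47 to 1.75) for Cyp2t4. Only 2 squares of this section were rich in neutrophil markers, too few for a comparison. These squares were chosen after the values had been seen.

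All 8 carboxylesterase members were at least 2-fold higher in the KO-labelled section (15.7% of all genes). Median log2 ratios were 4.70 for Ces1 and 5.76 for Ces2. Ces2 enzymes split ester drugs in the gut wall. Ces2e held more counts than any other member in the KO-labelled section, at 1337 CPM (1329 to 1344), against 33.3 CPM (31.6 to 35.2) in the WT-labelled section, a log2 ratio of 5.33. Ces2e tiles ran from 0 through 26.04 to 80.6 CPM and from 494 through 1338 to 2008 CPM and did not overlap. Ces2a had 21 and 9550 counts (log2 7.66) and Ces2c 83 and 13727 (6.20). Ces2g, in the same cluster of chromosome 8 (104734003 to 104969537), was at 12.9 and 31.6 CPM (log2 1.29), so ratios within this one cluster spanned 1.29 to 7.66. In the Ces1 cluster of the same chromosome, Ces1f had 76 and 12899 counts (6.23), Ces1e 9 and 1673 (6.37), and Ces1d, a triacylglycerol hydrolase of fat and liver, 16.4 and 42.1 CPM (1.36). Ces1d tiles overlapped widely, from 0 through 14.8 to 54.5 CPM and from 2.26 through 17.1 to 411 CPM. Its medians by tile were close and a few tiles of the KO-labelled section were very high.

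All 14 glucuronosyltransferase members were at least 2-fold higher in the KO-labelled section (15.7% of all genes). The 9 Ugt1a genes lie at chr1:88055411-88220002, where alternative first exons are joined to shared last exons, and 7 of them end at the same base in RefSeq. Reads from the shared exons cannot be assigned to 1 gene, and nothing is given in the sources used here on how the authors counted them. Their log2 ratios stayed between 2.98 (Ugt1a10) and 4.23 (Ugt1a2), the narrowest range of any family with more than 3 members. Ugt1a8 held 33.2% of Ugt1a counts in the WT-labelled section and 30.1% in the other, at 8.74 and 72.6 CPM. Ugt1a1, the bilirubin-conjugating form, had 32 and 772 counts (log2 3.42).

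The Ugt2 genes, which lie within chr5:86889770-87337195 and conjugate steroids and bile acids, differed more (median 6.02, range 2.76 to 8.10). Ugt2b34 was at 21.9 and 482 CPM (log2 4.46) and held 5.44% of member counts in the KO-labelled section. Ugt2a3 had 6 and 3704 counts (8.10), Ugt2b5 2 and 1061 (7.88) and Ugt2b36 2 and 293 (6.02). Ugt2b35 had the smallest ratio of the family, 3.54 against 24.0 CPM (2.76).

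Among sulfotransferases, Sult1b1, which sulfates phenols and thyroid hormone, was at 3.69 CPM (3.12 to 4.34) in the WT-labelled section and 340 CPM (337 to 344) in the KO-labelled section, a log2 ratio of 6.53. Its tiles ran from 0 through 2.46 to 16.9 CPM and from 139 through 332 to 505 CPM, with no overlap. Sult1d1, its neighbour on chromosome 5, had a ratio of 4.83 and Sult2b1, which sulfates cholesterol, 3.05. Sult1a1, the phenol sulfotransferase, lay within 2-fold at 6.40 and 12.1 CPM (0.91), and so did Sult2a8 at 2.21 and 1.69 CPM (-0.38, -0.77 to 0.01).

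Glutathione S-transferases had the smallest ratios. Of 19 members, 12 were at least 2-fold higher in the KO-labelled section (15.7% of all genes) and 7 were within 2-fold. The median log2 ratio was 1.29. Gsto1, which reduces dehydroascorbate and arsenic compounds, was the leading member of the WT-labelled section with 254 CPM (249 to 259), or 28.3% of all member counts there. It was at 621 CPM (615 to 626), or 6.999% of member counts, in the KO-labelled section, a log2 ratio of 1.29. The Pi class genes Gstp1 and Gstp2 were at 64.2 and 72.8 CPM in the WT-labelled section and at 115 and 148 CPM in the other (0.84 and 1.03), and Gstp3 hardly differed (3.69 and 4.16 CPM, 0.17, -0.11 to 0.46).

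Within the Alpha and Mu classes the genes differed among themselves. Gsta1 was at 22.6 and 217 CPM (log2 3.26), but Gsta4, which clears the lipid peroxidation product 4-hydroxynonenal, was at 28.2 and 49.3 CPM (0.80), Gsta3 at 6.58 and 11.5 (0.80) and Gsta2 at 4.37 and 3.35 (-0.38, -0.66 to -0.10). The Mu genes form 1 cluster on chromosome 3 and ranged from 0.34 for Gstm5 to 6.31 for Gstm3, which had 12 and 2147 counts. Gstm6 (5.12), Gstm7 (3.78), Gstm4 (2.502) and Gstm2 (0.68) lay in between, and Gstm1, the Mu gene with most counts, was at 23.0 and 71.1 CPM (1.63). Theta class Gstt1 had a ratio of 3.49 and its neighbours Gstt3 and Gstt2 of 1.69 and 1.29. Gstk1, a mitochondrial and peroxisomal form, had 1.81.

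Members just above the threshold were Sult2a8 with 240 counts over both sections, Cyp4a32 with 277 and Cyp2c23 with 294. Those just below it were Cyp2c70 with 185 counts (log2 0.55), Ces1c with 145 (-0.59) and, with 127 each, Ces2b (4.79) and Cyp2c38 (0.58). In all, 10 members had 10 or fewer counts in the WT-labelled section. Their ratios were all at least 2-fold, but the threshold on summed counts forces this for members with so few counts there. Cyp2c23 was the only member whose ratio changed sign between scalings, 0.01 with section totals, 0.19 with the median of ratios and -0.04 with the 32 most abundant genes left out of the totals.

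Genes that work with these enzymes had smaller ratios. Of 18 measured regulators and partners, 9 were at least 2-fold higher in the KO-labelled section (15.7% of all genes), none was lower (19.7%) and the median log2 ratio was 1.002. The nuclear receptors PXR (Nr1i2) and PPARA (Ppara) had ratios of 2.61 and 2.97, CAR (Nr1i3) 1.32, Hnf4a 1.04 and Hnf4g 3.84, while Cyb5a and Cyb5r3, which pass electrons to some P450 reactions, had 2.02 and 2.01. Por, the electron donor of all these P450 enzymes, was within 2-fold at 238 and 385 CPM (0.69). Ahr and its partner Arnt were also within 2-fold (7.91 and 7.03 CPM, and 23.6 and 23.2 CPM). Other textbook Ahr targets went both ways beside the high ratio of Cyp1a1, and they were chosen after their values had been seen. Ugt1a6a, Ugt1a6b and Gsta1 were higher, with ratios of 3.89, 3.19 and 3.26. Ahrr was at 0.804 and 0.680 CPM (-0.24, -0.88 to 0.42), Tiparp at 20.7 and 12.1 (-0.77), Nqo1 at 14.9 and 19.0 (0.35) and Cyp1b1 was lower, as given above.

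Of 31 measured further enzymes and transporters of the same chemistry, 21 were at least 2-fold higher (15.7% of all genes), 1 was lower (19.7%) and the median log2 ratio was 1.94. Adh6a, an alcohol dehydrogenase, had 7.29, the flavin monooxygenase Fmo5 7.07, the epoxide hydrolase Ephx2 5.95, Papss2, which makes the sulfate donor, 4.79, and the export pumps Abcc2 and Abcg2 4.60 and 2.65. Akr1b8, an aldo-keto reductase, was the lower one (54.4 and 12.3 CPM, -2.14). Ugdh, which makes the glucuronic acid donor, had 1.55. Of 10 measured NRF2 targets outside the families, 2 were higher and 3 were lower, beside 15.7% and 19.7% of all genes, and the median was 0.25: Srxn1 had 1.55 and Me1 1.58, whereas Hmox1 (-2.79), Slc7a11 (-2.54) and Gclc (-1.53) were lower. The median of this list and that of the glutathione S-transferases, 1.29, are given side by side and the difference was not tested.

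To place the enzymes in the tissue, barcodes were pooled in squares with a side of 20 position units, 1292 in the WT-labelled section (median 28886 counts) and 2099 in the KO-labelled section (median 41179). For each marker list, the 10% of squares of a section with the highest share of marker counts were called rich in it. Squares hold several cell types: in the KO-labelled section the villus markers still made up 1.97% of counts in muscle-rich squares, against 6.75% in villus-rich squares. In the WT-labelled section the villus-rich squares held 0.334%, below the lowest square of the other section, 1.01%. The 56 squares of the WT-labelled section that led in fat markers are not called fat, because its Adipoq and Lep counts were 0.

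The sum of the enzyme genes ran from 0 through a median of 849 to 3870 CPM over squares of the WT-labelled section and from 3569 through 8227 to 17755 CPM over those of the KO-labelled section. Of the 2099 squares of the latter, 2094 lay above the highest square of the former. Within the KO-labelled section the sum was 13158 CPM in villus-rich squares, 11059 in villus-tip-rich and 10578 in villus-bottom-rich squares, 7539 in fat-rich, 6395 in Paneth-rich, 6044 in proliferation-rich and 5788 in muscle-rich squares. In the WT-labelled section it was 1393 CPM in villus-tip-rich, 1369 in villus-rich, 1148 in proliferation-rich, 1128 in villus-bottom-rich, 1022 in the squares that led in fat markers, 647 in muscle-rich and 574 in Paneth-rich squares. Villus-rich squares were the highest kind in the KO-labelled section and lay just under villus-tip-rich squares in the WT-labelled section. Their excess over proliferation-rich squares was a log2 ratio of 1.12 (1.11 to 1.14) in the KO-labelled section and 0.25 (0.20 to 0.31) in the WT-labelled section.

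**Figure D2:**
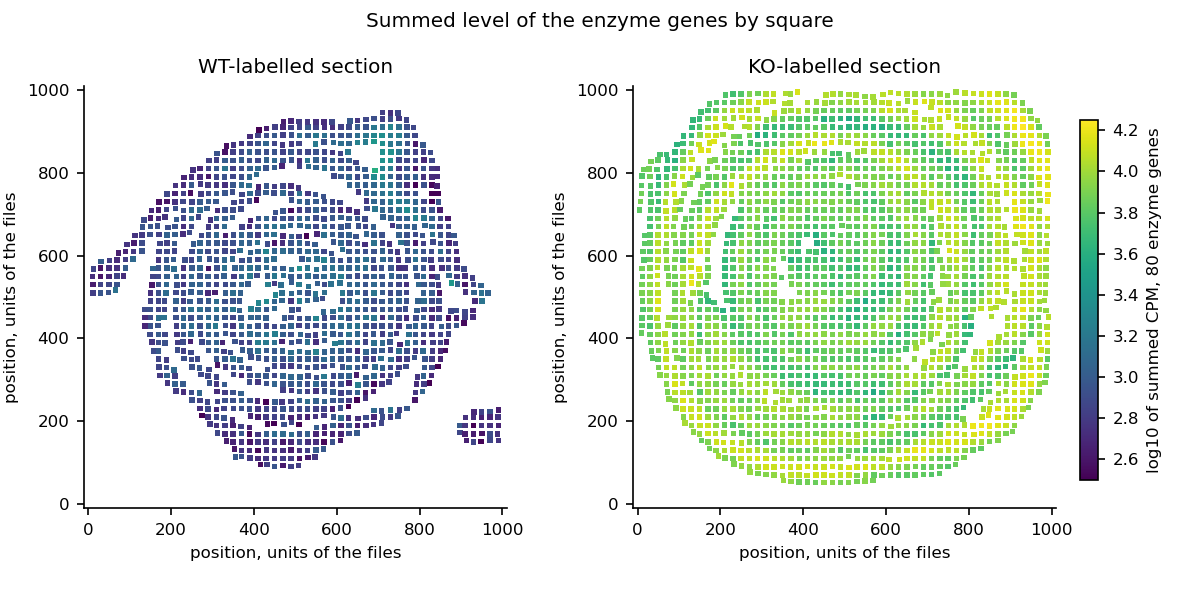
Maps of the 2 sections, both axes in the position units of the files, with each square of 20 units coloured by log10 of the summed CPM of the 80 enzyme genes (values beyond the colour scale take its end colour). Squares of the KO-labelled section all have 3569 CPM or more and form brighter bands towards the edges, while those of the WT-labelled section reach 3870 CPM at most.

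Over the 2099 squares of the KO-labelled section, the sum of the enzyme genes had a Spearman rho of 0.89 with the share of villus markers. It was 0.65 with the ileum markers and 0.82 with the proximal small intestine markers, of which Fabp1 and Lct are also villus markers. The squares share 1 library and neighbours, and both values are shares of the same counts, so this is a description. Over the 1292 squares of the WT-labelled section rho was 0.47 with villus markers and 0.47 with proliferation markers. Among the 58 members with 1000 or more counts in squares of the KO-labelled section, rho was highest with the villus list for 32, with the villus-bottom list for 14, with proliferation for 4, with stroma for 4, with villus tip for 2 and with fat for 2. Of 8456 genes with as many counts, marker genes left out, 15.9% had their highest rho with the villus list and 12% with the villus-bottom list. Per 100 villus marker counts, the KO-labelled section held 19.5 member counts in villus-rich squares and 29.5 in muscle-rich squares, and the WT-labelled section 41.0 and 262.

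Within the KO-labelled section, 28 of 80 members were at least 2-fold higher in villus-rich than in proliferation-rich squares (5.64% of all genes tested) and 9 were at least 2-fold lower (37.6% of all genes). Most of the higher ones were P450 genes. The count was 19 of 34 for P450 genes, 3 of 8 for carboxylesterases, 3 of 14 for glucuronosyltransferases, 3 of 5 for sulfotransferases and 0 of 19 for glutathione S-transferases. Cyp3a13 was at 2168 CPM (2140 to 2197) in villus-rich squares, 597 in proliferation-rich, 569 in Paneth-rich and 517 in muscle-rich squares. Cyp1a1 was at 197 CPM in villus-rich and 41.6 CPM in proliferation-rich squares, Cyp3a11 at 253 and 47.2, Cyp2j11 at 51.2 and 9.63, and Ces2c at 348 and 76.1. Differences of this size exceeded their counting intervals. Ces2e, by contrast, fell less, from 1969 to 826 CPM, and Gsto1 from 792 to 541 CPM. Gsta1 (205 and 223 CPM), Gstp1 (123 and 123) and Ces1f (131 and 125) were nearly even between these squares.

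**Figure D3:**
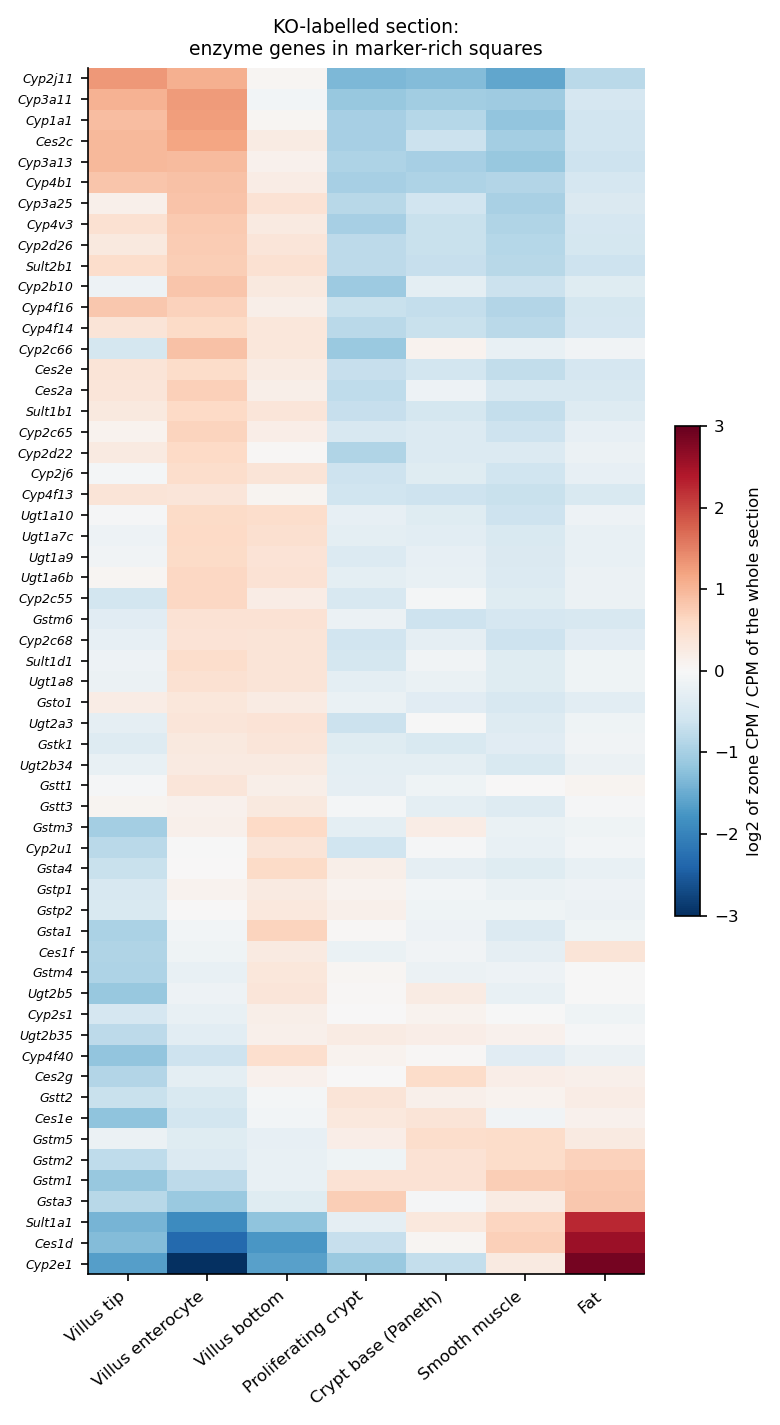
Log2 of the CPM in marker-rich squares over the CPM of the whole KO-labelled section, for the 58 enzyme genes with 1000 or more counts in its squares (rows) and 7 kinds of squares (columns); red is higher and blue lower than the section. P450 genes such as Cyp2j11, Cyp3a11 and Cyp1a1 at the top are highest in villus squares, and Cyp2e1, Ces1d and Sult1a1 at the bottom are highest in fat-rich squares.

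Of the 80 members, 49 had their highest level in villus-rich squares among 5 kinds of square in the KO-labelled section, 12 in proliferation-rich, 9 in fat-rich, 6 in Paneth-rich and 4 in muscle-rich squares. Of 14408 genes with 200 or more counts, marker genes left out, 19.2% were highest in villus-rich squares, and for 11.9% the interval there lay above the others. Shares of all genes in the other kinds of square were not taken, so the member counts there are descriptions only. The counting interval of the highest kind lay above those of the others for 42 of the 49, for Gstp3 in proliferation-rich squares, for Ces2g in Paneth-rich squares and for Ces1d, Ces1f, Cyp2e1 and Sult1a1 in fat-rich squares. Cyp2e1 was at 377 CPM (365 to 389) in fat-rich, 62.4 in muscle-rich, 23.6 in proliferation-rich and 6.24 in villus-rich squares. Ces1d followed the same order with 252, 69.3, 26.1 and 8.36 CPM, and Sult1a1 with 57.9, 18.8, 10.1 and 3.27 CPM. Cyp3a13 had the reverse order over villus-rich (2168 CPM), proliferation-rich (597) and muscle-rich squares (517). In fat-rich squares, however, it was at 738 CPM, above the proliferation-rich squares. Over squares, rho with the fat list was 0.53 for Cyp2e1 and 0.44 for Ces1d, and rho of Cyp2e1 with the hepatocyte list was 0.39. The hepatocyte list was low in both sections, 60.3 and 108 CPM in sum with Alb at 5.12 and 5.25, and its part was not tested. In the tiles of the KO-labelled section Cyp2e1 ran from 0 through 8.45 to 563 CPM, so its section level rests on few tiles.

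In the KO-labelled section, 32 of 80 members were at least 2-fold lower in muscle-rich than in villus-rich squares (6.28% of all genes) and 9 were higher (37.5%). Between fat-rich and villus-rich squares, 21 were lower (4.37%) and 8 were higher (30.9%). Among glutathione S-transferases, Gstm1 was higher in muscle-rich squares (118 CPM) and fat-rich squares (123) than in villus-rich squares (41.3), and Gsta3 was at 19.0 CPM in proliferation-rich, 20.1 in fat-rich and 5.28 in villus-rich squares. The rho of Gstm1 with the villus list was -0.35.

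Tip and bottom of the villus differed for some members. In the KO-labelled section, 3 of 79 members were at least 2-fold higher in tip-rich squares (1.77% of all genes) and 15 were at least 2-fold higher in bottom-rich squares (2.99%). Cyp2j11, Cyp3a11 and Cyp3a44 were the 3, with log2 ratios of 1.25, 1.12 and 1.04, and Cyp1a1 (0.87) and Cyp3a13 (0.85) came close. The 15 included 6 glutathione S-transferases, the last of them Gstm7 just past the boundary (-1.003). Gsta1 was at 113 CPM in tip-rich and 343 CPM in bottom-rich squares, Gsta4 at 31.2 and 73.0, and Gstm3 at 11.8 and 36.2. Cyp4f40 (-1.68), Ugt2b5 (-1.499), Ces1f (-1.17) and Cyp2u1 (-1.19) were higher in bottom-rich squares as well. Cyp4f14, Ces2e and Gsto1 hardly differed (1063 and 1034, 1745 and 1587, and 722 and 738 CPM).

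In the WT-labelled section, 50 members had the 20 counts needed for the comparison of villus-rich with proliferation-rich squares. Of these, 9 were at least 2-fold higher in villus-rich squares (1.59% of all genes) and none was lower (0.845%). Cyp4f14 was at 35.6 CPM (30.1 to 41.9) and 4.32 CPM (2.56 to 6.82), Cyp3a13 at 113 and 40.3, Ces2c at 10.0 and 1.68, and Cyp4b1 had a log2 ratio of 2.68. These genes had the same order in the other section. Gsto1, by contrast, was at 320 CPM in villus-rich and 360 in proliferation-rich squares, and at 118 in muscle-rich and 136 in Paneth-rich squares. Gsta1 was at 80.8 CPM in villus-rich, 43.2 in proliferation-rich and 6.67 in muscle-rich squares. Ces1d was again higher in muscle-rich (45.6 CPM) than in villus-rich squares (7.81), but was at 6.98 CPM in the squares that led in fat markers. Cyp1a1 had 0 counts in the villus-rich squares, which allows up to 0.901 CPM by the exact interval.

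**Figure D4:**
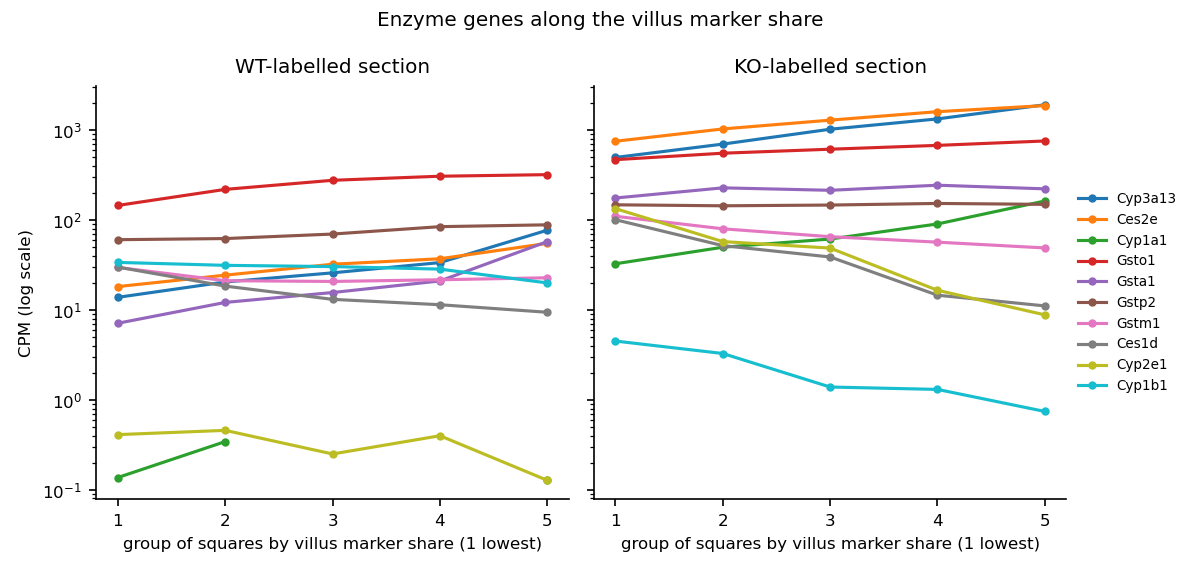
CPM on a log scale of 10 enzyme genes over 5 equal groups of the squares of each section, ordered by the share of villus markers from 1 (lowest) to 5 (highest); each line is a gene, and groups with 0 counts are not drawn. The sum of all members rose from 672 to 1205 CPM in the WT-labelled section and from 5742 to 12427 CPM in the KO-labelled section. Ces1d, Cyp1b1 and Gstm1 were lower in group 5 than in group 1 in both sections, and so was Cyp2e1 in the KO-labelled section.

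Cutting the squares of each section into 5 equal groups by villus share gave the order in finer steps. Cyp1a1 was at 32.6 CPM in the lowest and 163 CPM in the highest group of the KO-labelled section, and Ces1d at 101 and 11.1 CPM. In the WT-labelled section Cyp3a13 was at 13.8 and 77.0 CPM in those groups, Gsta1 at 7.11 and 57.6, and Ces1d at 30.0 and 9.42. The highest group of the WT-labelled section reached from a villus share of 0.0671% to 2.71%, and the lowest group of the other section began at 1.01%.

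Between the sections, the log2 ratio of the summed enzyme genes was 3.26 in villus-rich squares, 3.23 in villus-bottom-rich, 3.16 in muscle-rich and 3.48 in Paneth-rich squares. It was 2.99 (2.95 to 3.03) in villus-tip-rich squares and 2.88 (2.80 to 2.96) in squares that led in fat markers. The lowest ratio was in proliferation-rich squares (2.40, 2.35 to 2.44). In villus-rich squares 60 of 80 members were at least 2-fold higher in the KO-labelled section (14.7% of all genes) and 5 were lower (39.4%). In proliferation-rich squares 62 of 78 were higher (15% of all genes) and 4 lower (14%). The members that were lower in proliferation-rich squares were Cyp1b1 (-3.65), Cyp4f18 (-2.08), Cyp2t4 (-1.81) and Cyp2c23 (-1.29). Squares that lead in the same list still differ in what else they hold, since those of the WT-labelled section had far fewer villus markers.

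Only 11 squares of the WT-labelled section had a villus share inside the range of the other section, 1.01% to 2.71%, and 714 squares of the KO-labelled section fell in that range. The 11 were the squares richest in villus markers in their section. The 714 were the poorest in theirs, where villus-rich squares began at 5.82%. This match was chosen after the values had been seen. The enzyme genes summed to 2122 CPM (1971 to 2282) in the 11 squares, which ranged from 1221 to 3870 CPM, and to 6162 CPM (6133 to 6190) in the 714. The log2 ratio was 1.54 (1.43 to 1.64), less than the 3.30 over all barcodes. Of the 59 members with counts in both sets, 41 were at least 2-fold higher in the KO-labelled section (17.4% of all genes), 1 was lower (17.2%) and 17 were within 2-fold, with a median log2 ratio of 1.73, beside 3.14 for these members over all barcodes. The other 21 members had 0 counts in the 11 squares, and for 12 of them the level in the other section lay under the 3-count floor of 8.77 CPM.

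In these squares Cyp3a13 was at 541 CPM in the WT-labelled section (185 counts) and 563 CPM in the KO-labelled section, a log2 ratio of 0.06 (-0.15 to 0.27), against 5.05 over all barcodes. Cyp4b1 (-0.66, -1.07 to -0.21) and Cyp4f16 (-0.85, -1.21 to -0.46) were lower in the KO-labelled section, within 2-fold. Several other villus-associated members had smaller ratios than over all barcodes. Ces2c (0.75, 0.04 to 1.56, against 6.20) and Sult2b1 (0.48, -0.20 to 1.26, against 3.05) lay within 2-fold. Ces2e, Cyp4f14, Sult1b1 and Ugt2b34 stayed above 2-fold. Ces2e was at 114 and 847 CPM (log2 2.89, against 5.33 over all barcodes) and Cyp4f14 at 99.4 and 486 CPM (2.29 against 7.24). Sult1b1 was at 20.5 and 218 CPM (3.41 against 6.53) and Ugt2b34 at 73.1 and 380 CPM (2.38 against 4.46). Cyp2d26, with 2 counts, was at 5.85 and 169 CPM (4.85, 2.999 to 7.90). Cyp1a1 had 0 counts and Cyp2b10 had 0 counts in the 11 squares, so they were at least 4.42-fold and at least 8.78-fold higher in the KO-labelled section against a floor of 3 counts. The single lower member was Cyp4f18 with 26.3 and 4.69 CPM (-2.49). Some members went the other way, with larger ratios than over all barcodes. Among them, Ces1d was at 3.86 against 1.36, Gstm1 at 3.51 against 1.63 and Gstp1 at 1.81 against 0.84. They rested on 2, 3 and 11 counts in the 11 squares. The 2 sets of squares were not alike in villus markers within the range, which made up 1.58% of counts in the WT-labelled section and 2.06% in the KO-labelled section. They also differed in other markers, since muscle markers made up 0.0447% and 0.475% of counts and Paneth markers 4.59% and 0.976%, and the part of these differences was not tested.

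**Figure D5:**
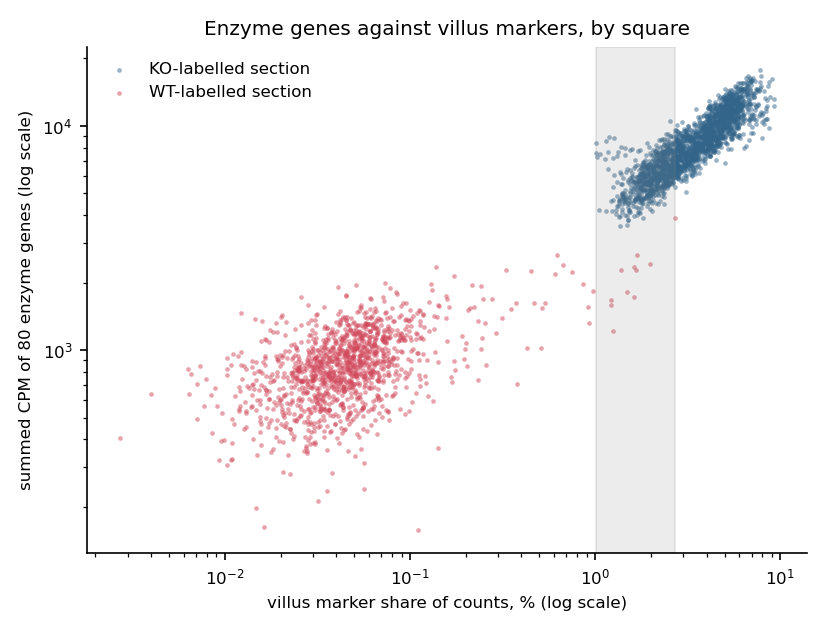
Summed CPM of the 80 enzyme genes against the villus marker share of counts in percent, both on log scales, with 1 point per square and sections in colour (squares with a value of 0 are not drawn); the grey band is the shared range of villus share, 1.01% to 2.71%. In the band the 11 squares of the WT-labelled section lie between 1221 and 3870 CPM, and the 714 squares of the KO-labelled section between 3569 and 10472 CPM.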

How the data were processed

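Each section has 1 deposited matrix of whole-number counts per gene and barcode, which the authors made without normalization, keeping barcodes under tissue after image alignment per the labels' protocols. The submitters' processing notes name the build GRCm38. Nothing is given in the sources used here on the aligner, on reads shared by paralogs or on whether molecular identifiers were collapsed. PCR copies may thus be counted as separate reads, and intervals cover counting error only.

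Counts were added over repeated symbols and over all barcodes of a section, and CPM were taken from the sums. CPM carry exact Poisson intervals, ratios exact conditional binomial and shares Clopper-Pearson intervals. A section at 0 was set to 3 counts. Tiles had a side of 100 units and 200 or more barcodes. Squares had a side of 20 units, 10 or more barcodes and 5000 or more counts, and rich squares 10 or more marker counts. Ratios in squares needed 20 counts. Counts were not divided by gene length. The members, marker lists and naming rules were chosen with earlier results of these data known. The rule gave full values to the 2 leading members of each family, the 10 highest and 10 lowest ratios, the 3 members on each side of the threshold and the 5 leading members of each kind of square. For some of these only the ratio or the counts are given in the text. Any member may be named.

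Python 3.11.15, numpy 2.4.6, scipy 1.17.1, pandas 2.3.3 and matplotlib 3.10.9 were used, and the ratio code was tested on simulated counts. Positions and promoters came from RefSeq (GRCm38.p6), where all 80 members were placed. Alternatives were other scalings, count minimums, square sides and definitions of rich squares, and barcodes with 300 or more counts.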

Additional observations from a re-analysis of the deposited data

How the results depend on the processing

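The 80 members kept the direction of every summed comparison under each alternative that was run. The summed log2 ratio between the sections, 3.30, was 3.49 with the median of ratios, 3.25 with the 32 most abundant genes left out of the totals and 3.34 over the members with 1000 or more counts. Villus-rich over proliferation-rich squares in the WT-labelled section, 0.25, was 0.42 and 0.16 with sides of 10 and 40 units, 0.52 with the top 5% of squares and 0.33 with squares rich in 1 list only. In the KO-labelled section, 1.12 became 1.19, 0.95, 1.26 and 1.10 under these settings and 1.22 with 1 threshold over both sections. Villus-rich squares between the sections, 3.26, gave 3.17 with a side of 10 units and 3.11 with the top 5%. Squares matched on villus share, a match chosen after seeing the data, gave 1.54. Those of the KO-labelled section were its poorest in villus markers, not its villus-rich squares. With 20 or more counts, 105 genes qualified, 78 higher and 4 lower, and with 1000 or more, 61, of which 53 were higher and 2 lower. The shares over all genes at these minimums were not taken. One threshold over both sections left 0 villus-rich squares in the WT-labelled section, and leaving out near-identical pairs was not run because proteins were not used here. No paired analysis was possible because each genotype has 1 section. Depth limits the 10 members with 10 or fewer counts in the WT-labelled section.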
